A study of Arabidopsis thaliana with 6 samples.

Results

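The HAIRY MERISTEM genes HAM1 (AT2G45160), HAM2 (AT3G60630), HAM3 (AT4G00150) and HAM4 (AT4G36710) were followed by their locus identifiers through RNA-seq of Arabidopsis thaliana inflorescence meristems. These 4 of the 32833 loci in each count table were all the members, and all 4 were among the 19719 genes that passed the filter on low counts. Meristems were dissected from 15 cm tall stems, and flower primordia past the youngest stages were taken away. Every plant carried erTurquoise, a fluorescent reporter, under the CLV3 promoter through the dexamethasone-gated factor GR-LhG4, and every plant was sprayed with dexamethasone. The 3 control libraries carried the reporter alone (genotype pCLV3>>erTurquoise), and the 3 libraries labelled VGD1 carried in addition VGD1, a pectin methylesterase of pollen tubes, behind the same driver (pCLV3>>erTurquoise, >>VGD1). The CLV3 promoter is active in the stem cells at the tip of the dome, whereas the RNA is that of the whole dissected sample. Sources differ on the treatment: harvest followed the spray by 72 hours in the design text but by 48 hours in the protocol, and the dose is written both as 30 µM and as 30 mM.

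HAM proteins belong to the GRAS family of plant transcriptional regulators, which also holds the DELLA repressors of gibberellin signalling and the root regulators SHORT-ROOT and SCARECROW. In the shoot they bind the homeodomain protein WUSCHEL and other WOX proteins as cofactors, they keep cells of the meristem undifferentiated, and they keep the stem cell gene CLV3 confined to the upper cell layers. Messages of HAM1, HAM2 and HAM3 are cut by microRNAs of the miR171 family, which is made in the epidermis of the shoot tip, and HAM4 is known as the member that escapes this control.

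The miR171 site is shown first because it splits the family. The mature 3p strands below were read from the RefSeq TAIR10.1 genome at the places its annotation gives, written 5′ to 3′ with the seed, bases 2 to 8, in capitals.
miR170-3p: uGAUUGAGccgugucaauauc
miR171a-3p: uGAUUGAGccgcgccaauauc
miR171b-3p: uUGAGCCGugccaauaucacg
miR171c-3p: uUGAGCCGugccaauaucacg
miR170-3p and miR171a-3p share one seed. The strands of miR171b and miR171c share another, shifted along the same target.

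Each HAM gene is a single exon in that annotation, and each site lies in the coding sequence. The coding strand is printed with 20 bases on either side, and capitals mark the 21 bases that face miR171a-3p.
HAM1 (chr2:18619108-18619168, minus strand): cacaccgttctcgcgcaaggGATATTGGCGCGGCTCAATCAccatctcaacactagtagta
HAM2 (chr3:22411524-22411584, minus strand): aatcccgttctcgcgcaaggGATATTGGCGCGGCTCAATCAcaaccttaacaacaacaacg
HAM3 (chr4:58391-58451, minus strand): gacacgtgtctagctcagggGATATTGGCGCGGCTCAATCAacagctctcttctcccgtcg
HAM4 (chr4:17306468-17306528, plus strand): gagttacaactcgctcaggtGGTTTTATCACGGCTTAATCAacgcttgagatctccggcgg
The 21 bases of HAM1, HAM2 and HAM3 were identical and complementary to miR171a-3p without a mismatch. Of 27558 transcripts scanned, 1 per protein-coding gene, these 3 were the only ones with 0 mismatches and the only ones with up to 3. The closest window of HAM4 had 6 mismatches, where the median transcript's closest window had 9. That window is the counterpart of the site, since the coding alignments of HAM4 with HAM2 and HAM3 put it opposite base 804 of HAM2 and base 675 of HAM3, where their sites begin. The alignment with HAM1 did not cover the window in an unbroken block. Against the 3p strands of miR171b and miR171c, the HAM1, HAM2 and HAM3 sites had 3 mismatches each, and against miR170-3p they had 2. Small RNAs were not measured here.

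HAM1 and HAM2 are the closest relatives in the family, with 77.7% of 1757 aligned coding bases identical and a longest shared run of 38 bases. HAM3 was 67.7% and 67.1% identical to HAM1 and HAM2. HAM4 was the most distant, at 61.7% to 64.2%, and its longest run shared with another member was 14 bases. No other annotated gene overlaps any of the 4, so the unknown strand setting of the counting leaves no overlapping gene to confuse them with. In the 300 bases around the annotated start (250 before, 50 after), the letters AGATAA on either strand were present in HAM1, HAM2 and HAM3, as in 29.2% of 27561 such windows. TTAATGG and CACGTG were in none of the 4 windows (8.09% and 7.65% of all windows).

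Totals ran from 6638772 counts in control replicate 3, the shallowest library, to 24437872 counts, and the next lowest was 18432365. HAM counts lay between 120 and 1240 per library, so each member was measured from at least 120 counts everywhere. VGD1 itself does not mark the second group: it stood at 11.4, 12.7 and 4.80 CPM (reads scaled to a common library size with TMM factors) among controls, while the labelled libraries had 6.59, 7.92 and 7.11 CPM. Every direction below is therefore that of labelled libraries. The meristem genes STM and KNAT1 were present in all libraries. STM had group means of 69.3 ± 2.74 (control) and 78.2 ± 15.8 CPM (labelled VGD1), KNAT1 89.9 ± 2.93 and 86.3 ± 24.8 CPM (SD, n = 3 each). In labelled replicates 1 to 3 STM stood at 60.3, 90.5 and 83.7 CPM and KNAT1 at 60.9, 110.5 and 87.4 CPM. Of 7 shoot meristem markers 6 were tested, 3 with a log2 fold change above 0 and 3 below (median 0.06). Summed over the 7, levels were 264 to 285 CPM among controls and 240 to 335 CPM in the labelled libraries. CLV3, the defining stem cell marker, had no count in any control, and the labelled libraries held 3, 8 and 11 counts. It did not pass the filter on low counts and was not tested. Among tested genes, 8.17% had all labelled libraries above all controls. Whether replicates were separate pools of plants is not stated, so p-values reflect library-to-library spread, which may be technical.

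The study set out to follow gene activity across the meristem after a wall-modifying enzyme was to be induced in stem cells. The data compare whole dissected samples of the labelled line and the control line, and for the HAM genes no change was detected. HAM1 and HAM2, the more abundant members, stood between 50.4 and 62.3 CPM in every library. HAM3 was lower on average and HAM4 varied most between libraries, but the groups overlapped for all 4, whereas they did not for 17.2% of all tested genes. Of the 4 members 0 passed the edgeR quasi-likelihood test at an adjusted p of 0.05 in either direction, where 0.416% of all tested genes did (0.101% higher and 0.314% lower). At an unadjusted p of 0.05 the count was also 0, against 13.6% of all tested genes, and DESeq2 and limma-voom called 0 of the 4 as well. The median log2 fold change of the 4 was 0.10, with 3 above 0, and that of all tested genes was -0.0004.

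HAM1, which acts with WUSCHEL in the central and deeper meristem, stood at 53.2, 50.4 and 61.8 CPM in control replicates 1 to 3 and at 58.8, 59.4 and 59.2 CPM in the libraries labelled VGD1. The 3 labelled libraries lay within 1 CPM of each other and inside the control range, whose top was the shallow control replicate 3. Means were 55.1 ± 5.93 and 59.1 ± 0.27 CPM (SD, n = 3 each). The fold change was 1.08, with a 95% interval from 0.935 to 1.26 (log2 0.12, SE 0.10, edgeR adjusted p = 0.658).

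HAM2, the close copy of HAM1, stood at 53.4, 51.3 and 59.1 CPM among controls against 57.8, 56.5 and 62.3 CPM in the libraries labelled VGD1. Control replicate 3 lay above labelled replicates 1 and 2, so the groups overlapped. The means were 54.6 ± 4.00 and 58.9 ± 3.06 CPM. The fold change was 1.09, with an interval from 0.942 to 1.25 (log2 0.12, SE 0.09, edgeR adjusted p = 0.637).

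HAM3, the third member with a miR171 site, stood at 25.5, 24.4 and 18.9 CPM among controls against 23.8, 17.5 and 15.3 CPM in the libraries labelled VGD1. Labelled replicates 2 and 3 lay below every control, and labelled replicate 1 lay near the upper controls. The means were 23.0 ± 3.56 and 18.9 ± 4.40 CPM. This gave the largest HAM difference, a fold change of 0.802 with an interval from 0.611 to 1.05 (log2 -0.32, SE 0.18), and an edgeR adjusted p of 0.481. The size depended on single libraries: without labelled replicate 1 the log2 fold change was -0.52 (edgeR unadjusted p = 0.00671, adjusted p = 0.162), and without labelled replicate 3 it was -0.19 (adjusted p = 0.754).

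HAM4, the member without a miR171 site, which is also active in young vascular tissue, stood at 34.6, 22.8 and 18.0 CPM among controls against 25.2, 31.1 and 26.6 CPM in the libraries labelled VGD1. Control replicates 1 and 3 were the highest and the lowest of the 6 libraries, so the whole labelled group lay inside the control range. The means were 25.1 ± 8.58 and 27.7 ± 3.11 CPM. The fold change was 1.06 with an interval from 0.761 to 1.47 (log2 0.08, SE 0.21, edgeR adjusted p = 0.914), the widest of the family. Without control replicate 1 the log2 fold change was 0.41 (edgeR unadjusted p = 0.0311, adjusted p = 0.460), and without control replicates 2 or 3 it was -0.02 and -0.05.

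**Figure D1:**
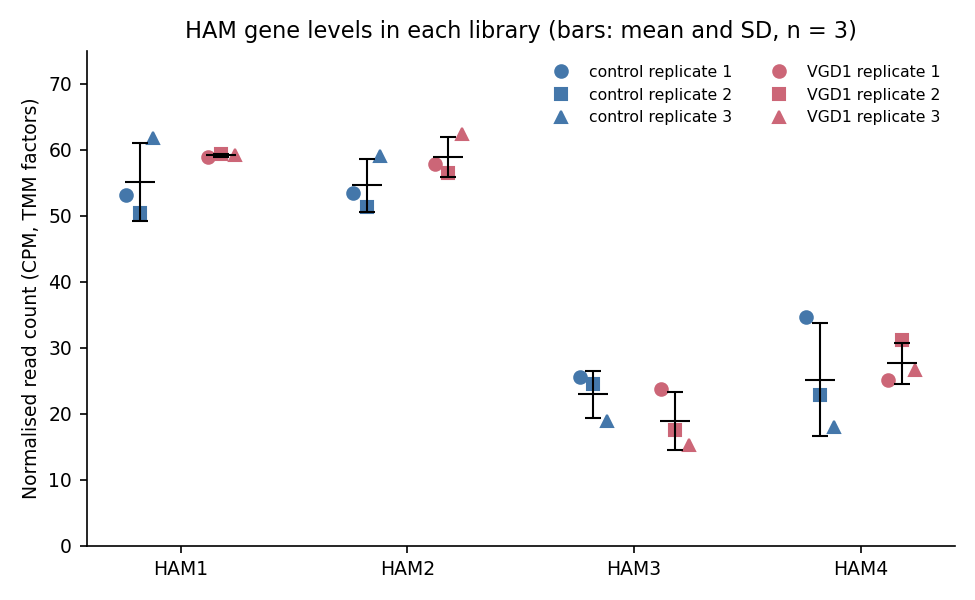
Normalised read count (CPM, y axis) of each HAM gene (x axis) in every library, with blue symbols for controls, red symbols for libraries labelled VGD1, symbol shape for the replicate number, and black bars for mean and SD (n = 3). HAM1 lies between 50.4 and 61.8 CPM and HAM3 between 15.3 and 25.5 CPM, and for each gene the colours overlap.

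**Figure D2:**
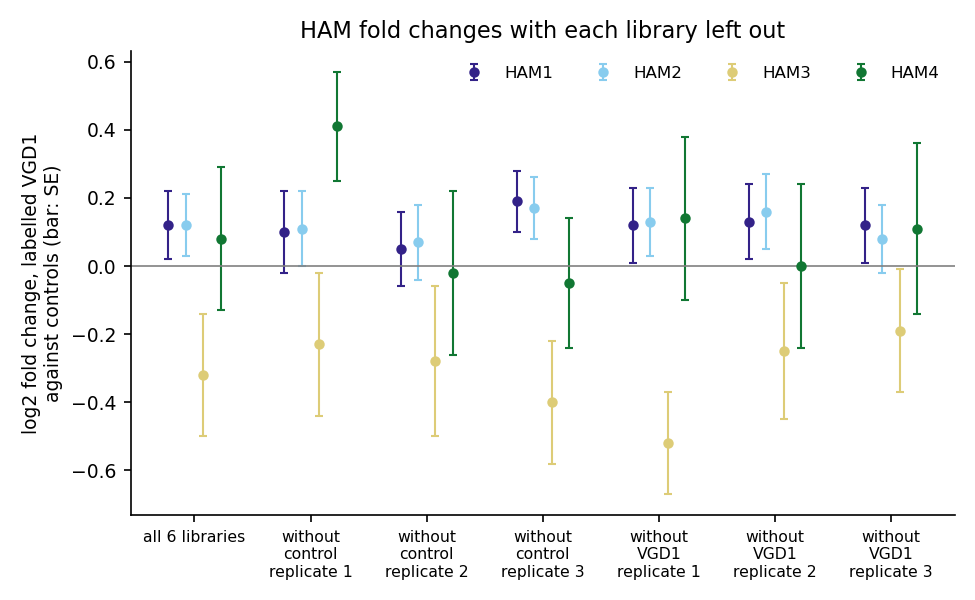
The log2 fold change of each HAM gene (y axis, bar for SE) with all 6 libraries and with each library left out in turn (x axis). HAM3 stays below 0 throughout, from -0.52 to -0.19, while HAM4 moves from -0.05 to 0.41.

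Markers of other tissues are given beside the HAM values. Over all 19719 tested genes, edgeR called 82, and 2677 had an edgeR unadjusted p under 0.05 (1028 higher, 1649 lower). DESeq2 called 424 of all tested genes and limma-voom 69, and the counts for this and the later lists are to be read beside these. Of 6 vascular markers, 6 had a log2 fold change below 0 (median -0.53) and 0 were called by edgeR (4 at an unadjusted p of 0.05, 2 by DESeq2, 0 by limma-voom). Their summed level was 187 to 221 CPM among controls against 134 to 175 CPM in the libraries labelled VGD1. The 6 markers differed: ATHB8 and APL stood at log2 -0.02 and -0.11, and SUC2, IRX1, IRX3 and IRX5 at -0.54, -0.52, -0.78 and -0.67. HAM4 was highest in control replicate 1, followed by labelled replicates 2, 3 and 1 and control replicates 2 and 3. In that order the vascular sums were 205, 175, 153, 134, 221 and 187 CPM. For 6 tapetum and anther markers the sums were 438 to 627 and 153 to 391 CPM, with 6 below 0 and 0 called by edgeR (3 unadjusted, 0 by DESeq2, 0 by limma-voom). Among them MS2 had means of 204 (control) and 102 CPM (labelled VGD1) and AMS 98.4 and 62.9 CPM, where STM had 69.3 and 78.2 CPM. The samples thus held RNA of tapetum and anther genes, although flower primordia past the youngest stages were taken away. For 5 green tissue markers the sums were 5887 to 8237 and 5567 to 6665 CPM, with 5 below 0 and 0 called by edgeR (3 unadjusted, 1 by DESeq2, 0 by limma-voom). Epidermal markers had 4 of 4 above 0 (median 0.23), with sums of 1573 to 1921 and 1880 to 2165 CPM and 0 called by edgeR (1 unadjusted, 0 by DESeq2, 0 by limma-voom). These 4 differed: ATML1, PDF1 and PDF2 stood at log2 0.29, 0.26 and 0.20, and FDH at 0.01. The part of tissue makeup in the HAM values was not tested, and in such bulk samples fewer cells of a type and less RNA per cell cannot be told apart.

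Levels of different genes were compared after division by exon length, as CPM per kb. HAM2 and HAM1 were the most abundant, at 23.4 ± 1.63 and 22.1 ± 1.68 CPM per kb (SD over 6 libraries), followed by HAM4 at 13.96 ± 3.14 and HAM3 at 8.87 ± 1.79 CPM per kb. Of 19622 tested genes with a length, 71.8% had a lower level per kb than HAM2, 69.9% than HAM1, 54.9% than HAM4 and 41.3% than HAM3. The order was the same in each of the 6 libraries. An exact two-sided sign-flip permutation test within libraries gave p = 0.03125 for each of the 6 pairs, the smallest value that 6 libraries allow, and the same value after Benjamini-Hochberg adjustment over the 6 pairs.

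HAM1 and HAM2, neighbours in this order, differed least: the level of HAM1 per kb was 0.889 to 0.984 times that of HAM2, a mean log2 difference of -0.09. That gap depends on the length used, since per kb of coding sequence it was -0.03 with an exact permutation adjusted p of 0.25. With that length HAM1 and HAM2 did not keep the same order in every library. HAM1 exceeded HAM4 by 1.12 times in control replicate 1 and by 2.51 times in control replicate 3, with a mean of 1.61. HAM4 exceeded HAM3 in all 6 libraries, by a mean log2 difference of 0.64 that spanned 0.21 to 1.14.

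HAM1 and HAM2 thus held a near-fixed ratio while the other members shifted against them. The ratio of HAM1 to HAM3 was 1.90, 1.88 and 2.97 in the controls and 2.25, 3.09 and 3.52 in the libraries labelled VGD1. It was lowest in the deep controls, and control replicate 3 lay among the labelled libraries. HAM3 made up 12.2% to 16.4% of the family's summed level per kb in the controls and 9.40% to 14.4% in the libraries labelled VGD1. HAM4 made up 14.5% to 25.5% and 19.0% to 23.5%. The sum of the 4 members was 66.9 ± 4.45 CPM per kb among controls against 69.7 ± 0.53 CPM per kb in the libraries labelled VGD1 (SD, n = 3 each), with labelled libraries from 69.1 to 70.1 CPM per kb inside the control range of 63.1 to 71.7.

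**Figure D3:**
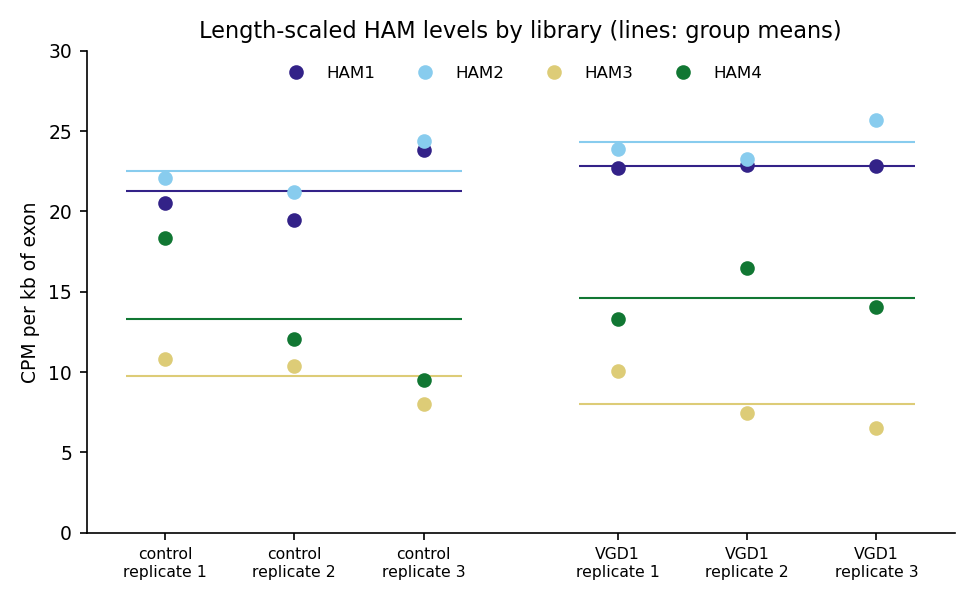
Level per kb of exon (y axis) of the 4 HAM genes in each library (x axis), with lines for group means. Per kb of exon, the order HAM2, HAM1, HAM4, HAM3 is the same in every library, and HAM4 comes closest to HAM1 in control replicate 1 (18.3 against 20.5 CPM per kb).

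Within the GRAS family, HAM2 and HAM1 ranked 10th and 11th of 35 genes by mean level per kb, HAM4 ranked 16th and HAM3 ranked 20th. The DELLA gene RGA led with 64.5 CPM per kb, and SHR, the mobile regulator of root radial patterning, ranked 8th at 25.9 CPM per kb. LAS, the GRAS gene of axillary meristems, stood at 1.59 CPM per kb. Of the 27 other GRAS genes tested, 0 were called by edgeR in either direction (2 at an unadjusted p of 0.05, 0 by limma-voom), 18 lay above 0, and their median log2 fold change was 0.10, the same as that of the HAM genes. DESeq2 called 1 of them, RGL1, a DELLA gene, which stood at 50.9 ± 2.62 CPM among controls against 36.8 ± 2.32 CPM in the libraries labelled VGD1 (log2 -0.47, SE 0.09, edgeR adjusted p = 0.0776). SCL3, a GRAS gene that counters DELLA proteins, stood at 16.6 ± 2.304 and 23.5 ± 5.91 CPM (log2 0.51, edgeR adjusted p = 0.286). SCL13, which ranked next after RGA per kb, stood at 78.4 ± 19.2 and 94.0 ± 21.9 CPM (log2 0.24, edgeR adjusted p = 0.706).

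**Figure D4:**
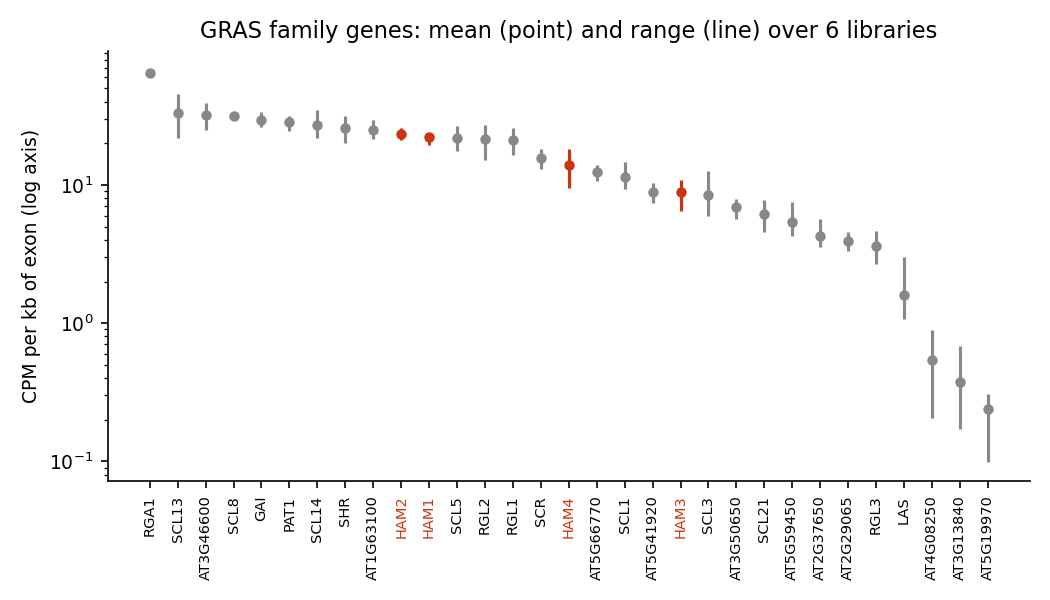
Mean level per kb of exon over 6 libraries (points, log y axis) and range (lines) for the 31 GRAS genes that passed the filter on low counts (x axis), with HAM genes in red. HAM2 and HAM1 stand side by side at 23.4 and 22.1 CPM per kb, and HAM3 lies lower at 8.87.

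The miR171 precursors were near the limit of detection in these poly(A)-selected libraries. MIR170, MIR171A and MIR171C had 0 to 11 counts per library and did not pass the filter. MIR171B, whose mature strand pairs with the HAM1, HAM2 and HAM3 sites with 3 mismatches, had 7, 7 and 1 counts among controls, and the labelled libraries held 11, 15 and 10 counts. All 3 labelled libraries lay above all 3 controls, as for 8.17% of tested genes, and the log2 fold change was 1.13 (SE 0.54, edgeR adjusted p = 0.391). In control replicate 3, the shallowest library, 1 count is too few to be told from 0. Of 7 genes of microRNA production and action, 0 were called by edgeR (1 unadjusted, 0 by DESeq2, 0 by limma-voom). AGO1, the slicer that carries microRNAs, stood at 432 ± 45.9 and 516 ± 16.5 CPM (edgeR adjusted p = 0.294), and AGO10, its relative of the shoot meristem, at 175.5 ± 10.1 and 193 ± 15.4 CPM (adjusted p = 0.569).

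Partners of the HAM proteins and their co-repressors were not called either. WUS, the homeobox gene of the organising centre, stood at 4.30, 3.73 and 3.00 CPM among controls against 4.60, 1.51 and 2.91 CPM in the libraries labelled VGD1, with labelled replicate 2 the lowest and labelled replicate 1 the highest of the 6. WOX4, a homeobox gene of the cambium, had 11.9 ± 1.00 and 9.50 ± 2.45 CPM (edgeR adjusted p = 0.566). WOX5, the root counterpart of WUS, had 0 to 8 counts per library. SPL9, a phase-change factor that binds HAM proteins, stood at 142 ± 8.16 and 145 ± 28.4 CPM (adjusted p = 0.942). TPL, the co-repressor recruited by WUS, stood at 257 ± 4.68 and 291 ± 16.3 CPM and TPR4 at 165 ± 5.68 and 189 ± 7.99 CPM (edgeR adjusted p = 0.391 and 0.325). Both had all labelled libraries above all controls, as did 8.17% of all tested genes. Over the 9 tested genes of this list 0 were called by edgeR (1 unadjusted, 0 by DESeq2, 0 by limma-voom), and the median log2 fold change was 0.07.

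Receptors of the CLV3 pathway, which limits WUS and is itself held in place by the HAM genes, had 7 of 7 tested members above 0, with a median log2 of 0.15 and 0 called by edgeR (1 unadjusted, 0 by DESeq2, 0 by limma-voom). RPK2, a receptor-like kinase of this pathway, stood at 59.7 ± 4.87 and 71.8 ± 3.54 CPM (log2 0.26, SE 0.09, edgeR adjusted p = 0.263). CLV1, the CLV3 receptor kinase, stood at 51.6 ± 5.90 and 59.9 ± 2.57 CPM (adjusted p = 0.427). For RPK2 and CLV1, 2 of the 7 tested members, the 3 labelled libraries lay above the 3 controls, as for 8.17% of all tested genes.

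Protochlorophyllide oxidoreductases make the chlorophyll precursor chlorophyllide in the light, and PORC has been described as a gene that HAM proteins repress in leaves. All 3 had a log2 fold change below 0, with 0 called by edgeR (2 unadjusted, 0 by limma-voom). DESeq2 called 1 of the 3, PORB. PORB stood at 341, 367 and 434 CPM among controls against 129, 104 and 231 CPM in the libraries labelled VGD1. The groups lay apart, as for 9.02% of tested genes with the labelled libraries lower, and the log2 fold change was -1.29 (SE 0.30, edgeR adjusted p = 0.166). PORC stood at 117 ± 18.9 and 89.6 ± 10.2 CPM (log2 -0.39, SE 0.13, adjusted p = 0.230) and PORA at 15.6 ± 3.39 and 9.55 ± 5.33 CPM (adjusted p = 0.560). All 5 green tissue markers given above had a log2 fold change below 0 too, but their summed levels overlapped between the groups. Control replicate 3, at 5887 CPM, lay below labelled replicate 2, at 6665 CPM. The part of green tissue in the POR values was not tested.

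**Figure D5:**
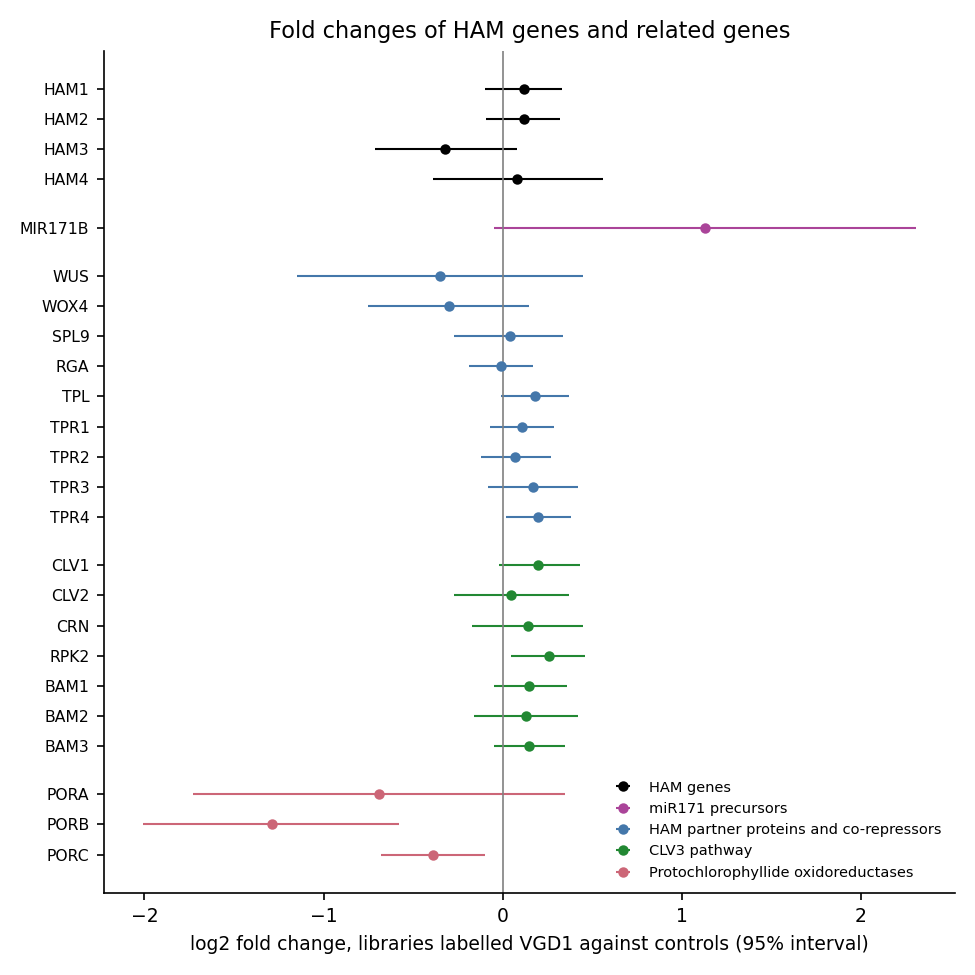
The log2 fold change of libraries labelled VGD1 against controls (x axis, lines for the 95% interval of the edgeR fit) for the HAM genes and the tested genes of 4 related lists (y axis). HAM1 and HAM2 have narrow intervals around 0.12, and PORB at -1.29 and MIR171B at 1.13 lie farthest from 0.

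Genes with the profile most like each member over the 6 libraries were taken by Pearson's r of log2 (CPM + 0.5), among 8205 genes with a symbol and at least 1 CPM. For HAM1 they were UBC3 (r = 0.991), a ubiquitin-conjugating enzyme, MUB4 (0.976), a membrane-anchored ubiquitin-fold protein, and pPLAIIIbeta (0.967), a patatin-related phospholipase. For HAM2 they were PDLP2 (r = 0.993), a plasmodesmata-located protein, GHR1 (0.991), a receptor-like kinase, and CIP111 (0.981), an ATPase. For HAM3 they were SDH7 (r = 0.996), a succinate dehydrogenase subunit, CCD1 (0.996), a carotenoid cleavage dioxygenase, and AAP1 (0.992), an amino acid permease. For HAM4 they were STE1 (r = 0.993), a sterol desaturase, NUDT21 (0.989), a Nudix hydrolase, and AMSH1 (0.988), a deubiquitinating protein. Depth and tissue makeup are shared by all genes of a library, and between 0.622% and 1.32% of the 8205 genes had an r over 0.9 with each member, so these are descriptions over 6 points. Among the members themselves r was 0.87 for HAM1 with HAM2, -0.69 and -0.79 for HAM3 with HAM1 and HAM2, and 0.12 for HAM3 with HAM4.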

How the data were processed

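The authors deposited raw counts of reads per gene, 1 table per library, over 32833 loci. Per the file headers, RNA STAR made the alignments. The submitters' processing notes list TAIR10 and DESeq2 but neither a version nor a role. The sources used here do not give how reads were counted (tool, strand, mates). Of the 24 HAM counts 23 were even, as were 69.8% to 76.8% of the nonzero counts of each library, so counts were not treated as independent molecules and no counting intervals are given.

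Groups and replicate numbers came from sample titles, and no library was left out. edgeR 4.0.16 in R 4.3.3 was run on all 6 libraries: TMM factors, filterByExpr (minimum count 10, minimum total 15), robust glmQLFit, the two-sided quasi-likelihood F test and Benjamini-Hochberg adjustment over 19719 genes. The threshold was 0.05. Standard errors come from the fold change and F statistic, and 95% intervals from a t distribution with the fit's degrees of freedom. Sequences, lengths (union of exons), symbols and transcripts come from RefSeq TAIR10.1, as do all coordinates. Its name differs from TAIR10, and the count tables hold no coordinates. Locus identifiers matched for 32548 loci. The miR171 scan counted ungapped mismatches in the longest transcript of each gene. Biopython 1.88 made the coding alignments, and pandas 2.3.3 and matplotlib 3.10.9 the tables and plots. The edgeR step was tested on simulated counts. The sign-flip formula was checked only on a short set of made-up differences with a known answer.

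The members and the gene lists were chosen with earlier results of these data known. Named genes are the 4 members; listed precursors, partners, pathway and POR genes; in the GRAS and microRNA lists the 2 members with the smallest p and the 2 of highest CPM; and the 3 most similar profiles per member. SHR and LAS were named after their values were seen. Alternatives tried were library totals, RLE factors, a filter of 1 CPM in 3 libraries, no filter, DESeq2 1.42.0, limma-voom (limma 3.58.1), the replicate number as a block and leaving out each library.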

Additional observations from a re-analysis of the deposited data

How the results depend on the processing

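None of the 4 HAM genes was called under any of the 13 alternatives, and HAM1, HAM2 and HAM3 kept their direction in all 13. Leaving out 1 library gave log2 fold changes from 0.05 to 0.19 for HAM1, 0.07 to 0.17 for HAM2, -0.52 to -0.19 for HAM3 and -0.05 to 0.41 for HAM4. HAM4 turned to -0.02 without control replicate 2 and to -0.05 without control replicate 3, and was 0.00021 without VGD1 replicate 2. The cause was not tested. Over all genes the 82 calls became 139 without a filter, 424 with DESeq2 and 194 with the replicate block, and 4 to 202 with 1 library left out. Fits without 1 library leave a group of 2. Same-numbered libraries correlated in their deviations at -0.01, 0.033 and 0.095, so the numbers were not taken to pair them, and with the replicate block HAM1, HAM2, HAM3 and HAM4 stood at 0.11, 0.11, -0.29 and 0.14 (edgeR adjusted p from 0.348 to 0.834). Of the 6 differences between members' levels, 5 kept their call with a pseudocount of 1, coding length or library totals, and the HAM1 to HAM2 difference fell to -0.03 with coding length (exact permutation adjusted p = 0.25), the length being the only change there. Leaving out a library was not run for these differences, because 5 libraries cannot reach the threshold. Control replicate 3 holds the fewest counts, 120 to 412 per HAM gene, and so is the least precise.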
